A study of Mus musculus with 27 samples.

Results

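The comparison described here is between kidneys clamped for 28 min and kidneys clamped for 26 min, and asks which genes differ after a further 2 min of ischemia. It rests on 6 of the 27 sequenced kidneys, taken by their labels, with 3 mice at 26 min and 3 at 28 min. All mice were C57BL/6, and each lost its right kidney in the operation in which the left renal pedicle was clamped, a model named uIRIx. They lay on a 37 °C heating platform, and the left kidney was taken after 24 h of reperfusion for bulk RNA-Seq. The mice at 0 min, the sham group, also lost the right kidney but were not clamped, and the other groups of 3 were clamped for 16, 18, 20, 22, 24 or 30 min. Age and sex are not given in the sources used here, and Ddx3y, Kdm5d, Eif2s3y and Uty, which lie on the Y chromosome, were above 0 in all 27 kidneys. The labels name no transgene and no drug, and each kidney came from a different mouse.

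The proximal tubule reclaims most of the filtered salt, glucose, amino acids, phosphate and small proteins across a brush border of microvilli, and it lives on the oxidation of fatty acids and amino acids in its mitochondria. When the blood supply stops, this segment is the first to be damaged. Its straight last part, in the outer medulla, is hit hardest, together with the thick ascending limb of the loop of Henle nearby. Tubule cells that survive lose their transport genes, take up genes of keratins, annexins, secreted proteases and stress defence, and may divide to fill the gaps.

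The authors' values are FPKM, that is fragments per kilobase of transcript scaled by the mapped fragments of the library, so levels of different genes can be set side by side. The FPKM of the 6 kidneys summed to between 514110 and 548600. The depth relative to the median kidney, estimated from the value of single fragments in rare genes, was between 0.96 and 1.01 at 26 min and between 1.04 and 1.06 at 28 min, and the part of this difference in the results was not tested. Across genes, which are not independent replicates, log2(FPKM + 1) values correlated at 0.9932 to 0.9953 among the 26 min kidneys, at 0.9962 to 0.9971 among the 28 min kidneys and at 0.9835 to 0.9911 between them. The 26 min kidney nearest to the 28 min kidneys was replicate 3, at 0.9896 to 0.9911. In a bulk sample a lower value can mean fewer cells of a type or less RNA in each cell, and these cannot be told apart here.

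Of the 18188 genes tested, 272 (1.5%) differed by more than 1 on the log2 scale with limma's adjusted p-value below 0.05, and are called DEGs. Of these, 80 (0.44% of the genes tested) were higher at 28 min and 192 (1.06%) were lower. The groups of 3 kidneys did not overlap in FPKM for 271 of the 272, the exception being Bcat1. The DEG call itself favours such separation, so it is no further support for a gene, and the share over all tested genes is not given here. By the adjusted p-value alone, 1957 genes (10.8%) were higher and 1550 (8.52%) were lower, and "rose" and "fell" are used below for genes that passed this test. Another 27 genes had fold changes beyond 1 on the log2 scale without passing it. The step from 24 to 26 min called 0 DEGs in limma, with 1100 genes at an unadjusted p under 0.05, and the step from 22 to 24 min called 0, with 469. The step from 28 to 30 min called 191, of which 73 were higher and 118 lower. The median log2 fold change over all genes was 0.0037. Without replicate 2 at 26 min 43 DEGs were higher and 155 lower, and without replicate 3 at 26 min 121 were higher and 244 lower.

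**Figure D1:**
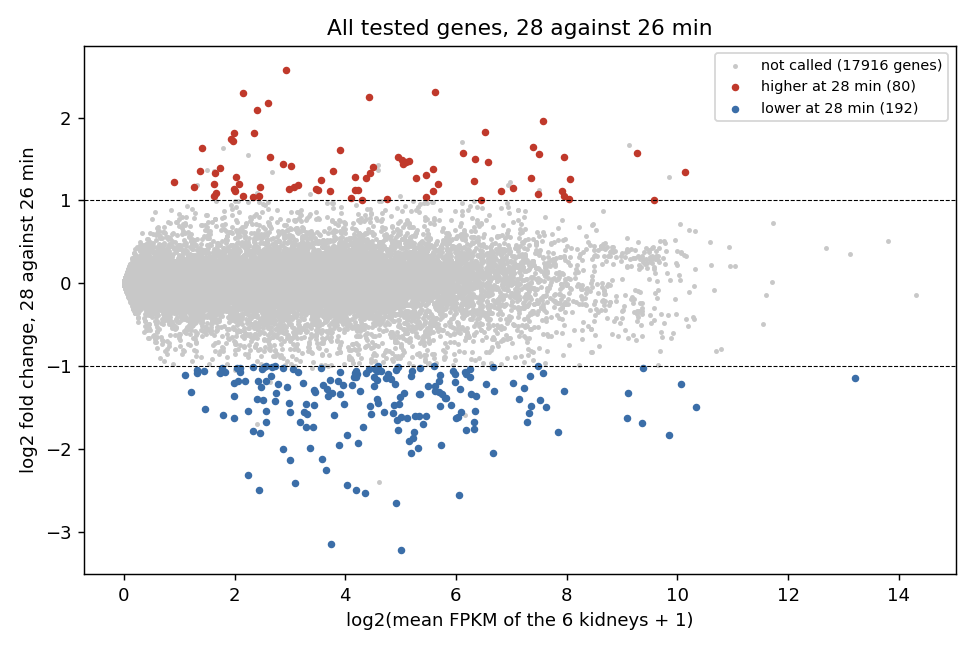
Each point is 1 of the 18188 tested genes, with the log2 of the mean FPKM of the 6 kidneys plus 1 on the x axis and the log2 fold change of 28 against 26 min on the y axis. The 192 genes called lower (blue) reach a fold change of -3.23 and outnumber the 80 called higher (red), and both occur from low to high levels; dashed lines mark a fold change of 1 in either direction.

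Brush border enzymes were lower at 28 min. Of 18 tested genes for peptidases and other proteins of the microvilli, 14 fell and 0 rose, 7 of them as DEGs, and their median log2 fold change was -0.79. Mep1b, the beta subunit of the protease meprin, stood at 20.8, 22.0 and 26.8 FPKM at 26 min and 1.50, 1.68 and 1.78 FPKM at 28 min. The groups were far apart (log2 fold change -3.15 ± 0.43, adjusted p = 7.40e-05). Here and below, the ± beside a fold change is limma's standard error, with the spread taken from all 9 groups, and not an SD of the 6 kidneys. Mep1a, the alpha subunit, is a more abundant transcript and read 330.1, 351 and 373 FPKM at 26 min and 136, 142 and 139.9 FPKM at 28 min, again without overlap (log2 fold change -1.30 ± 0.18, adjusted p = 7.11e-05). Anpep, the aminopeptidase N that trims peptides at the microvilli, was at 72.6, 85.7 and 57.8 FPKM at 26 min and 27.3, 32.6 and 26.6 FPKM at 28 min. The sham mean of 66.0 FPKM lay within the 26 min range, and Anpep fell by 1.32 on the log2 scale (adjusted p = 1.00e-05). Dpep1, a dipeptidase that also cleaves leukotriene D4, fell by 1.24, but it was a DEG in only 1 of the 6 fits that left out 1 kidney, with an adjusted p up to 0.182 without replicate 2 at 26 min. Over those 6 fits the list held between 5 and 7 DEGs.

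Carriers of the proximal tubule were lower too. Of 36 tested solute carriers, 27 fell and 0 rose, 10 as DEGs, with a median of -0.79, and 10 or 11 were DEGs with any 1 kidney left out. Slc34a1, the main phosphate transporter of the brush border, was at 2014, 2323 and 1195 FPKM at 26 min and 667, 777 and 759 FPKM at 28 min. The 3 kidneys at 28 min were close together and below every 26 min kidney (log2 fold change -1.50 ± 0.18, adjusted p = 3.28e-05), and at 26 min replicate 3 was the lowest. Slc22a19, Slc22a13 and Slc22a7, organic anion transporters, fell by 1.96, 1.84 and 1.74. Slc5a8, a sodium-coupled carrier of lactate and other monocarboxylates, read 26.8, 34.5 and 25.4 FPKM at 26 min and 6.14, 7.0 and 7.25 FPKM at 28 min, a fall of 1.94 (adjusted p = 3.95e-05). The Slc22 genes form clusters of close paralogs, whose reads could have been split between copies.

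Among 22 amino acid transporters, 9 fell and 2 rose, with 4 DEGs, all lower, and a median of -0.29. Slc7a13, a cystine and aspartate transporter of the straight segment, was at 42.2, 51.5 and 60.2 FPKM at 26 min and 7.53, 5.85 and 8.73 FPKM at 28 min (log2 fold change -2.66 ± 0.38, adjusted p = 0.000116). Slc7a12, a related carrier, was at 11.7, 13.5 and 7.29 FPKM at 26 min and 1.83, 2.04 and 1.46 FPKM at 28 min. Its levels did not overlap either, and the fold change was -2.01. Slc6a20b fell by 1.34, and Slc6a13, a carrier of taurine and GABA, by 1.12. The 2 that rose were Slc7a5, which carries large neutral amino acids in many growing cells, by 0.63, and Slc7a11, the cystine-glutamate exchanger, by 0.47. Without replicate 2 at 26 min 6 of the list fell and 1 rose.

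Receptors of protein uptake had no DEG. Of 11 genes of the megalin and cubilin system, 5 fell, 0 rose and 0 were DEGs, with a median of -0.35. Lrp2, which encodes megalin, read 90.9, 116 and 91.4 FPKM at 26 min and 50.4, 56.6 and 59.7 FPKM at 28 min (log2 fold change -0.83 ± 0.21, adjusted p = 0.00881), and Cubn, its partner cubilin, had a fold change of -0.66 (adjusted p = 0.0227). The count of 5 was 1 without replicate 2 at 26 min. Lrpap1, the chaperone of megalin, had one of -0.67 (adjusted p = 0.000181). Of 20 transcription factors of the proximal tubule, 6 fell and 0 rose, with a median of -0.14 and 0 DEGs, and 1 fell without replicate 2 at 26 min. Emx1, a homeobox factor, was at 35.1, 29.1 and 23.4 FPKM at 26 min and 17.2, 17.4 and 16.4 FPKM at 28 min, without overlap (log2 fold change -0.76 ± 0.10, adjusted p = 7.45e-05).

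Enzymes that break down amino acids and fats were lower as well. Of 59 genes of amino acid catabolism, 39 fell and 1 rose, and 13 were DEGs, all lower, with a median of -0.59. Uroc1, the urocanase of histidine breakdown, was at 13.3, 12.9 and 10.1 FPKM at 26 min and 2.95, 1.44 and 1.45 FPKM at 28 min, with no overlap (log2 fold change -2.14 ± 0.30, adjusted p = 8.80e-05). Aadat, an aminotransferase of lysine and kynurenine metabolism, was at 67.2, 69.0 and 57.7 FPKM at 26 min and 19.4, 22.6 and 21.8 FPKM at 28 min and fell by 1.60. Gatm, which makes the precursor of creatine, fell by 1.50. Gatm was not a DEG without replicate 2 at 26 min (adjusted p = 0.111), which held its highest value of 485 FPKM, nor without replicate 1 at 28 min. Gnmt, glycine N-methyltransferase, fell by 0.98, under the fold threshold, but was a DEG without replicate 2 at 26 min or replicate 2 at 28 min (-1.02 and -1.15), with a pseudocount of 0.1 FPKM (-1.12) and after rescaling to a constant sum (-1.11).

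Of 49 genes of fatty acid oxidation and acyl-CoA synthesis, 18 fell and 2 rose, with a median of -0.30, and 11 fell without replicate 2 at 26 min. The 2 that rose were 0 without replicate 1 at 26 min or replicate 1 at 28 min, 1 without replicate 2 at 26 min or replicate 3 at 28 min, and 4 without replicate 3 at 26 min or replicate 2 at 28 min. The 4 DEGs that were lower were Acsm3, Bdh1, Acox2 and Acsm5. Acsm3, which activates medium-chain fatty acids, was at 70.3, 94.5 and 174 FPKM at 26 min and 21.1, 13.0 and 20.4 FPKM at 28 min, where the highest 28 min kidney lay far below the lowest 26 min kidney (log2 fold change -2.56 ± 0.35, adjusted p = 7.90e-05). Bdh1, which interconverts the ketone bodies, fell by 1.30, and Acox2, a peroxisomal oxidase, by 1.22. Acsm5 fell by 1.06 and was under the fold threshold without replicate 2 at 26 min or replicate 3 at 28 min. Pdk4, the kinase that shuts off pyruvate dehydrogenase, was the only DEG of this list that was higher, at 3.18, 3.91 and 5.39 FPKM at 26 min and 10.8, 7.76 and 13.3 FPKM at 28 min, and was not a DEG in 4 of the 6 fits without 1 kidney, with an adjusted p up to 0.0985 without replicate 3 at 28 min.

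Genes of mitochondrial energy metabolism were lower, without a DEG. Of 31 genes of the citric acid cycle and pyruvate metabolism, 20 fell and 0 rose, and of 74 nuclear-encoded subunits of oxidative phosphorylation, 39 fell and 0 rose. Their medians were -0.29 and -0.24. Atp5a1, of the ATP synthase, read 745, 766 and 667 FPKM at 26 min and 572, 579.7 and 550.2 FPKM at 28 min (log2 fold change -0.50 ± 0.11, adjusted p = 0.00288), and Mdh1, cytosolic malate dehydrogenase, had a fold change of -0.67 (adjusted p = 0.00632). Without replicate 2 at 26 min, 10 genes of the first list and 15 of the second fell. Idh2, the mitochondrial isocitrate dehydrogenase, fell by 0.51.

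G6pc, the phosphatase that releases glucose from the cell, was the 1 DEG among 7 genes of gluconeogenesis, of which 5 fell and 0 rose (median -0.75), or 3 without replicate 2 at 26 min. It was at 115, 188 and 69.2 FPKM at 26 min and 46.3, 29.9 and 27.6 FPKM at 28 min, and the call was lost without that kidney (adjusted p = 0.0754), while the list had 2 DEGs without replicate 3 at 26 min. Of 21 genes of glycolysis, 4 fell and 1 rose, or 0 in each fit without 1 kidney but that without replicate 3 at 26 min, with a median of -0.04. Its 1 DEG was Pgam2, a phosphoglycerate mutase, at 74.4, 79.6 and 34.2 FPKM at 26 min and 25.5, 27.3 and 22.1 FPKM at 28 min, where replicate 3 at 26 min stood nearest the 28 min kidneys (log2 fold change -1.24 ± 0.27, adjusted p = 0.00354). Pgam2 was not a DEG in a fit of the 26 and 28 min kidneys alone.

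Genes of sterol and lipid synthesis were lower. Scd1, the desaturase that makes oleate, had a sham mean of 45.5 FPKM and read 34.3, 30.3 and 37.5 FPKM at 26 min and 6.65, 5.38 and 3.48 FPKM at 28 min. The 28 min kidneys lay far below every 26 min kidney (log2 fold change -2.54 ± 0.30, adjusted p = 3.13e-05). Of 28 genes of cholesterol and fatty acid synthesis, 16 fell and 0 rose, 2 of them DEGs (Scd1 and Cyp51), with a median of -0.64, and 8 fell without replicate 1 at 28 min and 10 without replicate 2 at 26 min. The 2 DEGs were 1 without replicate 1 at 28 min, 5 without replicate 2 or replicate 3 at 28 min, and 4 with a pseudocount of 0.1 FPKM or after rescaling to a constant sum. At 26 min the median of this list was 0.52 above sham, and at 28 min it was -0.02 from sham. Cyp51, a demethylase of sterol synthesis, fell by 1.09, or by 0.94 without replicate 1 at 28 min, where it was not a DEG.

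Of 31 genes for cytochromes P450, conjugating enzymes and steroid metabolism, 14 fell and 0 rose, 10 as DEGs, with a median of -0.81. Ugt3a1, a glycosyltransferase, was at 54.2, 62.7 and 70.7 FPKM at 26 min and 14.6, 15.1 and 16.4 FPKM at 28 min, the groups being narrow and far apart (log2 fold change -2.00 ± 0.18, adjusted p = 4.43e-06). Akr1c21 and Akr1c14, aldo-keto reductases that act on steroids, were among the DEGs. Akr1c21 is the more abundant, at 919, 987 and 568 FPKM at 26 min and 209, 291 and 299 FPKM at 28 min, and fell by 1.63. Akr1c14 was at 10.2, 14.7 and 15.5 FPKM at 26 min and 1.47, 1.34 and 1.96 FPKM at 28 min and fell by 2.41. The 2 genes belong to a family of near copies, so the split of reads between them is uncertain. Inmt, which methylates indoles, fell by 1.63, and Cyp2e1, the ethanol-inducible cytochrome, by 1.49.

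**Figure D2:**
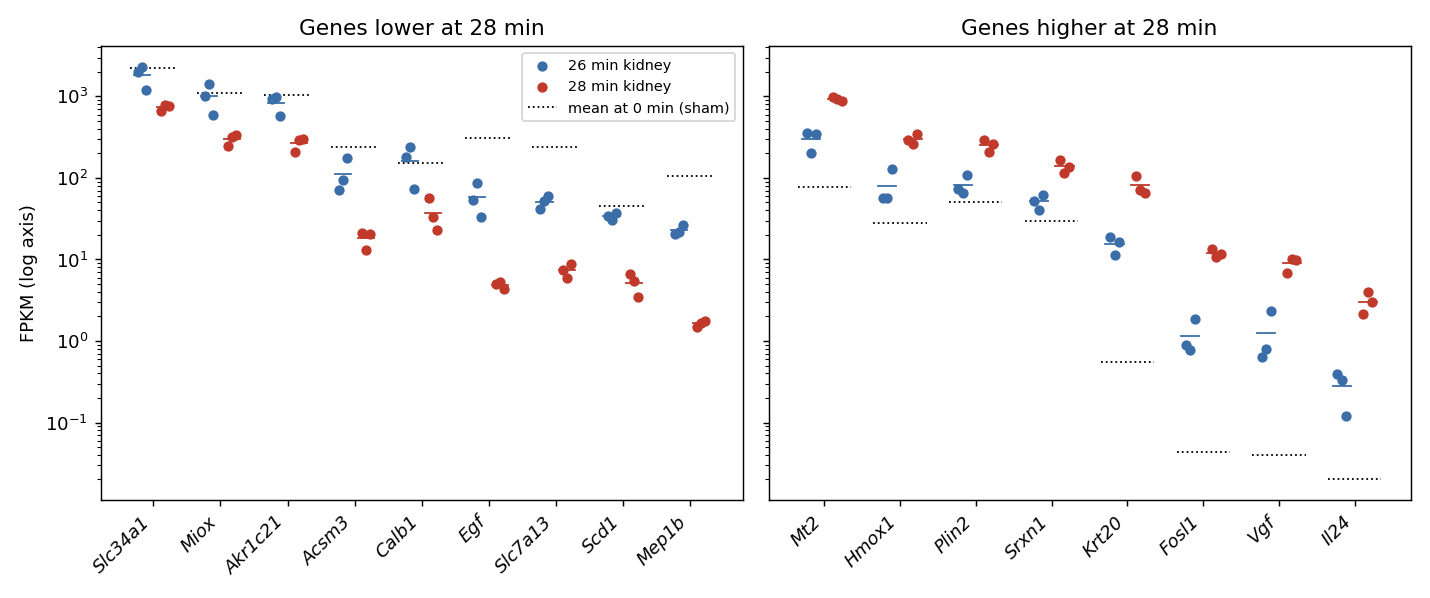
FPKM on a log axis for 9 genes lower and 8 genes higher at 28 min, with 1 point per kidney (26 min in blue, 28 min in red), short lines for the mean of 3 kidneys and dotted lines for the mean of the 3 sham kidneys. All are DEGs, nearly all of which had groups without overlap. That the 3 red points of each gene lie on 1 side of the 3 blue points therefore follows from the choice of genes. For Slc34a1, Miox and Calb1 the sham mean is within the range of the 26 min kidneys.

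Genes of the loop of Henle and the distal tubule were lower. Of 29 tested genes of these segments, 16 fell and 0 rose, 10 as DEGs, with a median of -0.74. Egf, whose product epidermal growth factor is made by the thick ascending limb and distal tubule, read 53.3, 86.2 and 33.5 FPKM at 26 min and 4.94, 5.27 and 4.37 FPKM at 28 min, and its 28 min kidneys were tightly grouped below the widely spread 26 min kidneys (log2 fold change -3.23 ± 0.60, adjusted p = 0.00103). Calb1 and Pvalb encode calcium-binding proteins of the distal tubule. Calb1 was at 179.6, 238 and 73.3 FPKM at 26 min and 56.0, 33.3 and 23.3 FPKM at 28 min, and Pvalb was at 6.60, 13.3 and 1.70 FPKM at 26 min and 0.06, 0.49 and 0.43 FPKM at 28 min. Both fell, by 2.05 and 2.32, and in both replicate 3 at 26 min was the lowest of its group. Neither was a DEG in a fit of the 26 and 28 min kidneys alone. Slc12a1, the salt transporter of the thick ascending limb, was at 127, 78.1 and 128 FPKM at 26 min and 32.8, 35.2 and 28.8 FPKM at 28 min. It fell by 1.77 with an adjusted p of 0.0273, and was a DEG in only 1 of the 6 fits without 1 kidney, the one without replicate 2 at 26 min. The list held 5 DEGs without replicate 1 at 26 min, 5 without replicate 3 at 28 min, where 7 of its genes fell, and 6 in a fit of the 26 and 28 min kidneys alone. Of 23 collecting duct genes, 11 fell and 0 rose, with a median of -0.62, and the 1 DEG was Slc4a1, the chloride-bicarbonate exchanger of acid-secreting cells and of red cells, at 8.48, 7.65 and 5.79 FPKM at 26 min and 2.98, 2.17 and 1.19 FPKM at 28 min. It was not a DEG without replicate 3 at 28 min (adjusted p = 0.0633), where 5 genes of the list fell, while 6 were DEGs without replicate 3 at 26 min.

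Genes of hormone systems of the tubule were lower too, among them Calb1 and Anpep, which were already reported above. Kl, which encodes klotho, the co-receptor for the phosphate hormone FGF23, was at 114, 162 and 80.4 FPKM at 26 min and 41.0, 47.5 and 44.7 FPKM at 28 min (log2 fold change -1.36 ± 0.25, adjusted p = 0.000844). Of 14 genes of klotho, vitamin D and calcium handling, 7 fell, 3 of them as DEGs, and 0 rose, with a median of -0.39. The third DEG besides Kl and Calb1 was Slc8a1, a sodium-calcium exchanger, which fell by 1.55 and was not a DEG without replicate 2 at 26 min (adjusted p = 0.0559), where 3 genes of the list fell. In a fit of the 26 and 28 min kidneys alone the list held 1 lower DEG, and 4 of its genes fell. Of 12 genes of the renin-angiotensin system, 5 fell and 0 rose, and the 3 DEGs were Agt, Ace and Anpep. The list held 3 DEGs in each of the 6 fits without 1 kidney as well. Agt, angiotensinogen, was at 47.4, 38.3 and 48.3 FPKM at 26 min and 13.4, 17.4 and 17.7 FPKM at 28 min, and Ace, the angiotensin-converting enzyme of the brush border and endothelium, was at 35.4, 34.0 and 37.5 FPKM at 26 min and 14.9, 15.7 and 17.4 FPKM at 28 min. They fell by 1.45 and 1.15.

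Marker genes were then read segment by segment. Several of them, such as Slc34a1, Slc12a1 and Calb1, were already reported above, so the markers are no separate check. Of 12 proximal tubule markers, 10 fell and 6 were DEGs, and their summed level went from between 16679 and 20336 FPKM at 26 min to between 9283 and 10926 at 28 min. Kap, 1 of the 12, made up a large part of this sum. Miox, an inositol oxygenase found almost solely in this segment, was at 1024, 1431 and 595 FPKM at 26 min and 247, 315 and 339.5 FPKM at 28 min (log2 fold change -1.69 ± 0.29, adjusted p = 0.00045). Slc22a30, of the straight segment, fell by 1.44. Slc5a2, the glucose transporter of the first segment, was at 148, 211 and 132 FPKM at 26 min and 139, 127 and 121 FPKM at 28 min, where the ranges overlapped and the test was not passed (log2 fold change -0.29 ± 0.25, adjusted p = 0.494). Slc5a12, a lactate carrier also of the convoluted part, likewise missed the test at a fold change of -0.50 (adjusted p = 0.265). A difference between the 2 parts of the tubule was not tested. Kap, an androgen-regulated gene that alone took 1.75% to 3.04% of all FPKM at 26 min and 1.19% to 1.45% at 28 min, fell by 1.15, or 0.75 without replicate 3 at 26 min. It was not a DEG without that kidney or in a fit of the 26 and 28 min kidneys alone. Nor was it one without quantile normalization or after rescaling to a constant sum.

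Of the thick ascending limb markers, 2 of 5 fell, with sums of 866 to 1492 and 560 to 825 FPKM. Of the distal convoluted tubule markers, 2 of 4 fell, with sums of 198 to 516 and 125 to 192 FPKM. Umod, which encodes uromodulin, was at 1267, 715 and 1108 FPKM at 26 min and 483, 741 and 502 FPKM at 28 min and overlapped (log2 fold change -0.99 ± 0.38, adjusted p = 0.0717). Of the markers of principal cells, 1 of 5 fell, and of those of intercalated cells, 2 of 5. None of 4 podocyte and 5 endothelial markers passed in limma, 0 of them even at an unadjusted p under 0.05, and their sums overlapped between the groups. Podocyte genes as a wider list of 15 had 2 that fell and 1 that rose, endothelial genes 1 of 15 that fell and stromal genes 2 of 15 that fell, and none of the 3 lists had a DEG. Their medians were 0.11, -0.08 and -0.26. Aplnr, a receptor of sprouting endothelium, was the endothelial gene below 0 past the test, at a fold change of -0.83, and Col3a1 and Dcn, a collagen and a proteoglycan of fibroblasts, had fold changes of -0.95 and -0.94. Of 32 genes of the extracellular matrix and its proteases, 3 fell and 1 rose, or 2 without replicate 3 at 26 min, with 0 DEGs and a median of -0.04. Over all tested genes, 8.52% fell and 10.8% rose. The 2 podocyte genes, 2 stromal genes and 3 matrix genes that fell were 0 in each list without replicate 1 at 26 min.

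Promoters of the DEGs were read for the letters of known factors. RefSeq gives the start of 54 of the 80 higher and 152 of the 192 lower DEGs in the window table used here (GRCm38.p6), each window running from 250 bases before the start to 50 after it. A match counts on either strand and in any window of a gene. GTTAAT, the core of the HNF1 site, a factor of kidney tubule genes, lay in 15.8% of the lower DEGs, 11.1% of the higher DEGs and 6.28% of all 14320 tested genes with a window. CAAAGTNCA, of HNF4, lay in 5.26%, 0% and 1.5%. TGANTCA, the AP-1 site that FOS and JUN family dimers bind, lay in 6.58% of the lower, 14.8% of the higher and 7.23% of all. TGACNNNGC, the antioxidant response element read by NRF2, lay in 10.5%, 22.2% and 16.0%, and TGATGNAAT, of CEBP and ATF dimers, in 1.32%, 0% and 0.754%. The AP-1 and antioxidant letters can overlap in 1 stretch, as they do before Mt2. A match is a description of the letters and not of binding. The 250 bases before the start are shown for 3 genes that fell and 2 that rose and that hold such letters, which are in capitals. They are Slc34a1 at chr13:55399398-55399647 on the plus strand (HNF1 cores 89 and 61 bases before the start), Ugt3a1 at chr15:9279579-9279828 on the plus strand (HNF1 core, 123 bases before), Akr1c21 at chr13:4573825-4574074 on the plus strand (HNF1 core, 52 bases before), Srxn1 at chr2:152105274-152105523 on the plus strand (AP-1, 102 and 45 bases before) and Krt20 at chr11:99438154-99438403 on the minus strand (antioxidant response element, 63 bases before).
Slc34a1: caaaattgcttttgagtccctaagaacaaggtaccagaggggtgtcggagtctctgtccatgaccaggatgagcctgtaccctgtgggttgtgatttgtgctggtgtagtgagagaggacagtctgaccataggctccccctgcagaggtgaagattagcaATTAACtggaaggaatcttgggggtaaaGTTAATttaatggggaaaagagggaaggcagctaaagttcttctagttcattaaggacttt
Ugt3a1: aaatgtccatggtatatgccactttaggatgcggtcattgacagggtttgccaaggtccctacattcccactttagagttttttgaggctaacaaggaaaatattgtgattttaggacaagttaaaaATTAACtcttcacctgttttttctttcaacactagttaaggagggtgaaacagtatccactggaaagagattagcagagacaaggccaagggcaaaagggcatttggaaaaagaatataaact
Akr1c21: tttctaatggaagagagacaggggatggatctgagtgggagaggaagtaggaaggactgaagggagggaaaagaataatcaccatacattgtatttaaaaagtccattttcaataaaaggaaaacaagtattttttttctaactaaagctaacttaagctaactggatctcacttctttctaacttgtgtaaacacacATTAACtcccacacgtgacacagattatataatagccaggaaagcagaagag
Srxn1: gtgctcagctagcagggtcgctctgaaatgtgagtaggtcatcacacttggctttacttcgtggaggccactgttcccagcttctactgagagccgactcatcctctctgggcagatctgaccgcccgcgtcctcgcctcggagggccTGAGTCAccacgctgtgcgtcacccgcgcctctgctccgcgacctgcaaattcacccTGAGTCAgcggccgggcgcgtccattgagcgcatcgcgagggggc
Krt20: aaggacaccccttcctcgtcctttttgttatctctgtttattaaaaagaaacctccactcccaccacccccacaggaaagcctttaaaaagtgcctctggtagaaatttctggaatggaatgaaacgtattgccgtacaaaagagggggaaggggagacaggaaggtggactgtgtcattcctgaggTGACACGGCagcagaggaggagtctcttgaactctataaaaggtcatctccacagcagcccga

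Genes that mark injured tubule cells were higher at 28 min. Of 41 on the list, 18 rose and 0 fell, 14 as DEGs, and the median log2 fold change was 0.98. Krt20, a keratin of injured tubule, was at 19.1, 11.4 and 16.5 FPKM at 26 min and 107, 70.2 and 65.7 FPKM at 28 min (log2 fold change 2.30 ± 0.55, adjusted p = 0.00586). Vgf, a secreted neuropeptide precursor, was at 0.64, 0.79 and 2.32 FPKM at 26 min and 6.85, 10.1 and 9.97 FPKM at 28 min. It rose by 2.18, and the highest 26 min kidney was replicate 3. Plin2, which coats lipid droplets, was at 73.5, 66.0 and 108 FPKM at 26 min and 289, 207 and 261 FPKM at 28 min, a rise of 1.64. Il24, a cytokine of the IL-10 family, was low at 0.39, 0.33 and 0.12 FPKM at 26 min and 2.16, 3.95 and 2.99 FPKM at 28 min, yet its groups were apart (log2 fold change 1.63 ± 0.18, adjusted p = 1.80e-05). The count of DEGs was 6 without replicate 2 at 26 min, where 9 rose, and 17 without replicate 3 at 26 min.

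The classical injury markers KIM-1 and NGAL were higher in every 28 min kidney than in every 26 min kidney, yet neither passed the test. Havcr1 (KIM-1) was at 494, 466 and 711 FPKM at 26 min and 1331, 1129 and 1359 FPKM at 28 min (log2 fold change 1.28 ± 0.74, adjusted p = 0.26), and Lcn2 (NGAL) was at 245, 115 and 479.9 FPKM at 26 min and 759, 931 and 827 FPKM at 28 min (log2 fold change 1.67 ± 0.78, adjusted p = 0.147). The spread that limma used for them came from all 9 groups. In a fit of the 26 and 28 min kidneys alone Havcr1 became a DEG (adjusted p = 0.025) and Lcn2 did not (0.0961), and without the 16 min kidneys, an alternative chosen after seeing the data, Lcn2 became one (0.0499) and Havcr1 did not (0.107). The fit of those 2 groups alone took the call from 19 other genes followed in the text, and Havcr1 was the only gain. At 0 min the means of Havcr1 and Lcn2 were 9.11 and 28.2 FPKM, far below both groups.

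Several of the largest changes were in genes outside the lists. Crct1, a cornified envelope protein, was at 0.88, 0.09 and 0.37 FPKM at 26 min and 3.21, 7.82 and 8.38 FPKM at 28 min and at 0 in the sham kidneys (log2 fold change 2.29 ± 0.27, adjusted p = 2.70e-05). Grp, which encodes gastrin-releasing peptide, was at 0.70, 0.28 and 2.36 FPKM at 26 min and 5.96, 8.44 and 8.08 FPKM at 28 min and rose by 2.09. Slpi, a leukocyte protease inhibitor, Prss22, a serine protease, and Gprc5a, a receptor induced by retinoic acid, rose by 1.82, 1.75 and 1.61. Gm3776 rose by 1.82, but it is a near copy of the glutathione transferase Gsta1, reads of the pair may be shared, and it was a DEG in only 1 of the 6 fits without 1 kidney (adjusted p up to 0.181 without replicate 2 at 26 min). On the other side, Mettl7a2 and Methig1, methyltransferase-like genes, fell by 2.50 and 2.25. They are annotated from the same start on chromosome 15 and overlap, so reads may be shared and these may not be 2 separate falls. Ceacam2, an adhesion molecule of epithelia, fell by 2.49 and Slc22a22, a prostaglandin carrier, by 2.44. Nat8f6, an acetyltransferase, fell by 2.06 and Serpina1b, an antitrypsin, by 2.12. Of the 272 DEGs, 172 were on none of the 41 lists for cell roles and segments, 124 of them lower.

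**Figure D3:**
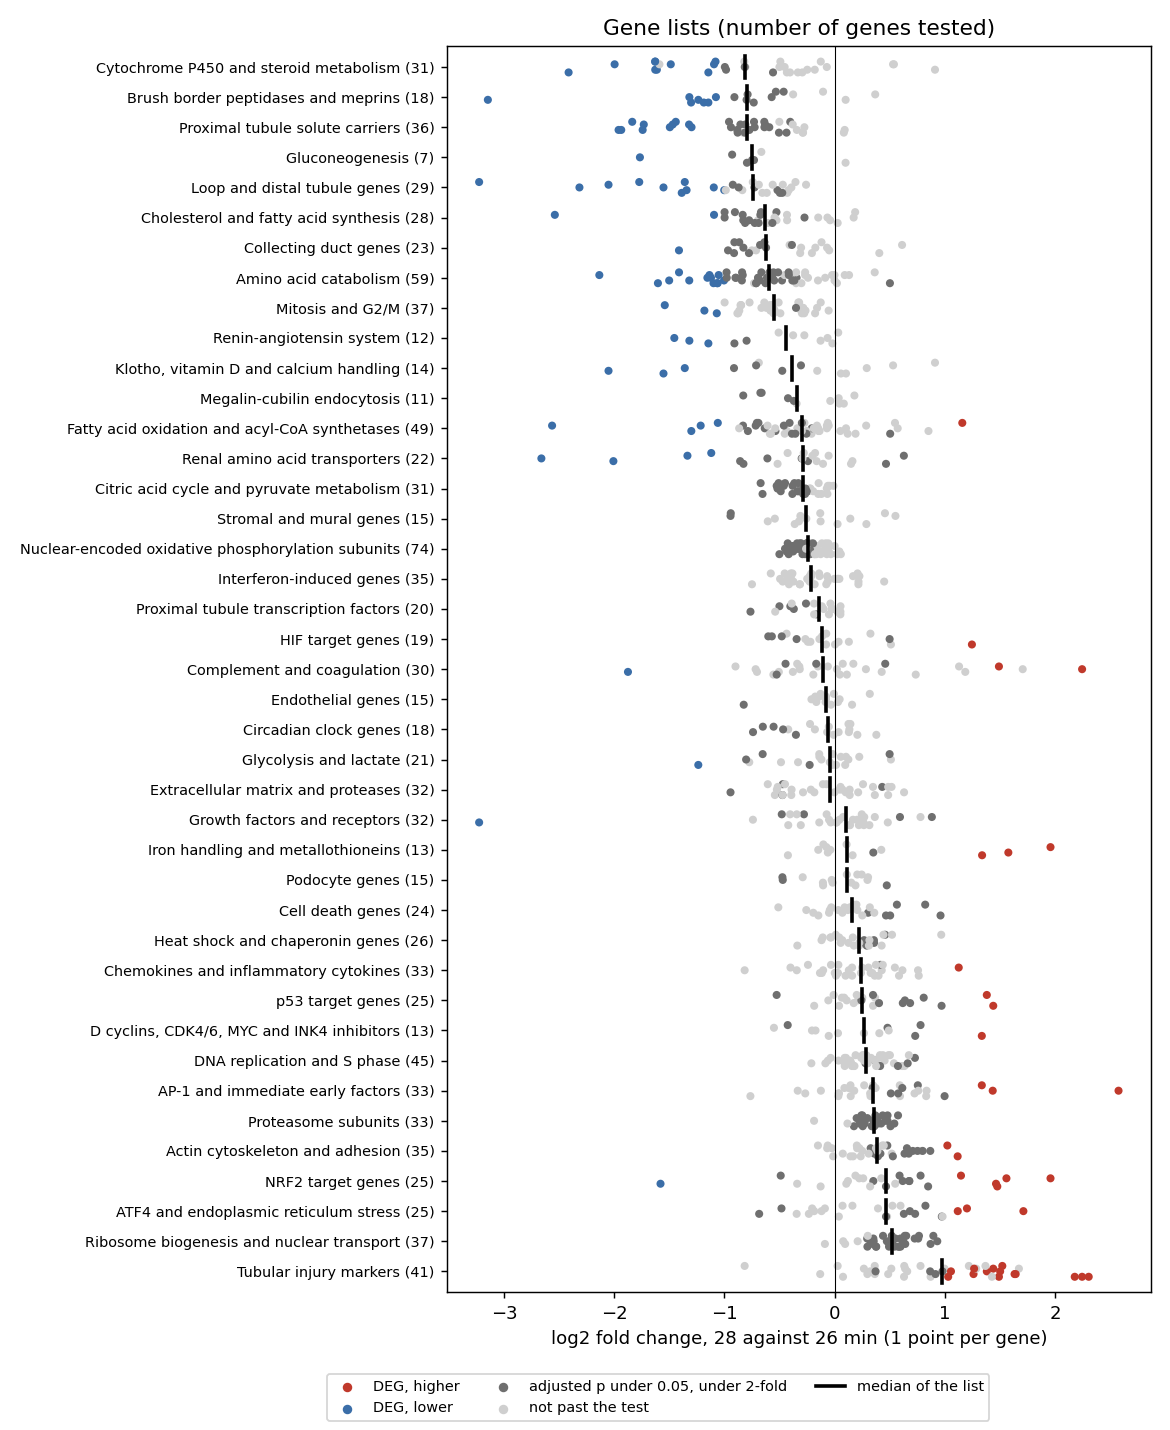
Log2 fold changes of 28 against 26 min for the genes of the 41 lists (1 point per gene), with the number of tested genes in brackets and a black bar at each list's median. Blue and red points are DEGs, dark grey points passed the adjusted p-value alone; medians run from -0.81 for cytochrome P450 and steroid metabolism to 0.98 for tubular injury markers.

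The immediate early factors were higher for some members only. Of 33 genes, 9 rose and 0 fell, with a median of 0.34. Fosl1, an AP-1 subunit that appears late and lasts, was at 0.89, 0.77 and 1.84 FPKM at 26 min and 13.3, 10.8 and 11.8 FPKM at 28 min (log2 fold change 2.58 ± 0.37, adjusted p = 0.000121). Its 28 min kidneys were all several times above the highest 26 min kidney. Dusp5, a phosphatase that ERK signalling induces, was at 2.41, 2.22 and 4.48 FPKM at 26 min and 9.03, 10.02 and 9.76 FPKM at 28 min, a rise of 1.43, and Myc was at 6.96, 8.84 and 20.6 FPKM at 26 min and 27.6, 28.9 and 32.4 FPKM at 28 min, a rise of 1.33 that was just lost without replicate 1 at 26 min (adjusted p = 0.0505), where 5 genes of the list rose. Fos and Jun, the best known AP-1 subunits, did not pass, with fold changes of 0.83 (adjusted p = 0.238) and 0.04 (adjusted p = 0.948).

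Genes of the defence against oxidants and metals were higher. Of 25 NRF2 target genes, 13 rose and 2 fell, 5 DEGs being higher and 1 lower, with a median of 0.47, and 8 rose without replicate 2 at 26 min, while 1 fell without replicate 1 at 26 min, replicate 1 at 28 min or replicate 2 at 28 min. Hmox1, heme oxygenase, was at 57.1, 56.9 and 128 FPKM at 26 min and 289, 258 and 344 FPKM at 28 min, where replicate 3 was again the highest at 26 min (log2 fold change 1.96 ± 0.29, adjusted p = 0.00015). Srxn1, which repairs oxidised peroxiredoxins and whose promoter is given above, was at 51.7, 40.8 and 61.8 FPKM at 26 min and 164, 114 and 137 FPKM at 28 min (log2 fold change 1.46 ± 0.17, adjusted p = 3.13e-05). Akr1b8, an aldo-keto reductase, rose by 1.48 with an adjusted p of 0.024, and Gsta1, with its near copies, was at 170.3, 56.7 and 72.6 FPKM at 26 min and 295, 228 and 255 FPKM at 28 min. Both calls were lost in most fits without 1 kidney, with adjusted p-values up to 0.0886 and 0.177 without replicate 2 at 26 min. Ces1g, a carboxylesterase, went the other way, by -1.58, and was not a DEG in 4 of those 6 fits. Prdx6, a peroxiredoxin, rose by 0.59. Of 13 genes of iron handling and metallothioneins, 4 rose and 0 fell, 2 without replicate 1 at 26 min, with a median of 0.11. The metallothioneins Mt1 and Mt2 bind zinc and copper. Mt1 was at 803, 467 and 701 FPKM at 26 min and 1716, 1534 and 1535 FPKM at 28 min, and Mt2 at 359, 204 and 349 FPKM at 26 min and 998, 922 and 874 FPKM at 28 min. They rose by 1.34 and 1.58, and Mt2 was a DEG in only 1 of the 6 fits without 1 kidney, with an adjusted p up to 0.128 without replicate 2 at 26 min.

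Targets of ATF4, the factor of the amino acid and unfolded protein response, were partly higher. Of 25 genes, 9 rose and 2 fell, with a median of 0.47, and 5 rose without replicate 2 at 26 min. Trib3, a pseudokinase that feeds back on ATF4, was at 0.47, 0.70 and 1.17 FPKM at 26 min and 4.15, 3.59 and 7.41 FPKM at 28 min (log2 fold change 1.71 ± 0.23, adjusted p = 6.74e-05), and replicate 3 was the highest in both groups. Atf5 was at 31.1, 23.3 and 33.3 FPKM at 26 min and 68.1, 55.9 and 68.8 FPKM at 28 min and rose by 1.12, or by 0.97 without replicate 2 at 26 min, where it was not a DEG. Chac1, which degrades glutathione, rose by 1.20 and was not a DEG in 3 of the 6 fits without 1 kidney (adjusted p up to 0.0944 without replicate 3 at 28 min). Of 19 HIF target genes, 4 fell and 2 rose, beside 8.52% and 10.8% of all tested genes. The median of the list was -0.12, and 1 of its genes fell without replicate 2 at 26 min. The 2 that rose were 1 in each of the fits without 1 kidney but that without replicate 3 at 26 min, and 1 with a pseudocount of 0.1 FPKM, after rescaling to a constant sum and with no filter. Adm, which encodes the vasodilator adrenomedullin, was at 5.01, 5.0 and 7.77 FPKM at 26 min and 14.4, 12.7 and 19.9 FPKM at 28 min (log2 fold change 1.24 ± 0.20, adjusted p = 0.000289).

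Of 25 p53 target genes, 10 rose and 1 fell, with a median of 0.25. Cdkn1a, the cell cycle inhibitor p21, was at 15.6, 12.9 and 22.8 FPKM at 26 min and 50.3, 40.8 and 48.9 FPKM at 28 min, and Gdf15, a stress hormone, was at 21.9, 14.9 and 44.9 FPKM at 26 min and 67.6, 52.2 and 80.3 FPKM at 28 min. They rose by 1.44 and 1.38, and both calls were lost without replicate 2 at 26 min (adjusted p = 0.062 and 0.0786), where 3 of the 25 rose and 1 fell. Trp53 itself rose by 0.64. Of 24 cell death genes, 6 rose and 0 fell, with 0 DEGs and a median of 0.15, and 3 rose without replicate 1 at 26 min. Bcl2l1, which encodes the survival protein BCL-XL, was at 67.5, 62.3 and 79.6 FPKM at 26 min and 128, 116 and 124 FPKM at 28 min, with no overlap (log2 fold change 0.82 ± 0.13, adjusted p = 0.000206). Mlkl and Ripk3, of necroptosis, had fold changes of 0.96 and 0.56.

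Genes for making and removing proteins were higher, without a DEG. Of 37 genes of ribosome biogenesis and nuclear transport, 32 rose and 0 fell, with a median of 0.52 and 0 DEGs. Gnl3, a nucleolar GTPase, was at 12.5, 13.1 and 16.6 FPKM at 26 min and 26.1, 26.7 and 29.3 FPKM at 28 min, and the groups did not overlap (log2 fold change 0.90 ± 0.13, adjusted p = 0.000152). Nop58 and Nop56, core proteins of the particles that methylate ribosomal RNA, had fold changes of 0.93 and 0.87. Of 33 proteasome subunits, 30 rose and 0 fell, with a median of 0.35. Psmb3 was at 161, 133 and 144 FPKM at 26 min and 213, 195 and 229.6 FPKM at 28 min, a narrow but separate pair of ranges (log2 fold change 0.57 ± 0.07, adjusted p = 3.95e-05). With 1 kidney left out, 26 to 32 and 25 to 30 genes of these lists rose. Of 26 heat shock and chaperonin genes, 6 rose and 0 fell, with a median of 0.22, and the 6 were subunits of the chaperonin ring, 4 of them rising without replicate 1 at 26 min. Cct5, one of them, had a fold change of 0.46 (adjusted p = 0.00273), while Hspb1 and Hspa1a did not pass, at fold changes of 0.97 and 0.52.

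Of 35 genes of actin and adhesion, 15 rose and 0 fell, with a median of 0.39, and 8 rose without replicate 1 at 26 min. The 2 DEGs were Lamb3, a chain of laminin-332, at 1.45, 1.53 and 1.68 FPKM at 26 min and 4.40, 5.09 and 4.08 FPKM at 28 min, and Cldn1, a tight junction claudin, at 14.3, 18.4 and 17.2 FPKM at 26 min and 39.1, 35.1 and 31.7 FPKM at 28 min. They rose by 1.12 and 1.02. Cldn1 was a DEG in none of the 6 fits without 1 kidney (adjusted p up to 0.135 without replicate 1 at 26 min), and Lamb3 was one in 3 of them (up to 0.0531 without replicate 2 at 26 min). Of 30 complement and coagulation genes, 4 fell and 3 rose, beside 8.52% and 10.8% of all tested genes. The median of the list was -0.11, but 1 rose without replicate 1 at 26 min and 2 fell without replicate 2 at 26 min. Plaur, the urokinase receptor, was at 12.1, 13.1 and 24.4 FPKM at 26 min and 41.8, 42.3 and 54.9 FPKM at 28 min, a rise of 1.49 that was lost in 3 of the 6 fits (adjusted p up to 0.0792 without replicate 1 at 26 min), and Serpina1a, an antitrypsin with close paralogs, fell by 1.88. Serpina1a was not a DEG in a fit of the 26 and 28 min kidneys alone.

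Few genes of inflammation passed the test. Of 33 chemokines and cytokines, 2 rose and 0 fell, with a median of 0.24, beside 10.8% of all tested genes that rose. The 2 that rose were 6 without the 16 min kidneys, an alternative chosen after seeing the data, and 1 without replicate 1 at 26 min. Csf1, the growth factor of macrophages, was the 1 DEG, at 9.03, 9.90 and 13.2 FPKM at 26 min and 20.2, 26.2 and 28.0 FPKM at 28 min, and was lost in 4 of the 6 fits without 1 kidney (adjusted p up to 0.0774 without that kidney). Cxcl1, a neutrophil attractant, was at 24.4, 29.2 and 89.7 FPKM at 26 min and 48.7, 47.6 and 57.3 FPKM at 28 min, so that replicate 3 at 26 min exceeded every 28 min kidney (adjusted p = 0.778). Ccl2, Cxcl2, Cxcl5, Ptgs2, Bcl3 and Il6 had adjusted p-values between 0.129 and 0.958 and fold changes between -0.13 and 0.44. Of 35 interferon-induced genes, 0 rose and 0 fell in limma, with 1 at an unadjusted p under 0.05. Their median was -0.21. The mean log2 level of this list was 3.16, 3.25 and 3.05 at 26 min and 2.91, 3.11 and 2.88 at 28 min. In sham it was 3.99, 6.79 and 6.54, so that sham replicate 1 stood apart.

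Markers of blood cells were read in the same way. Of 13 tested neutrophil markers, 3 rose, and the sum over all 14 went from between 6.16 and 10.3 FPKM to between 16.8 and 20.5 FPKM, with Elane and Mpo at 0 in all 6 kidneys. S100a8 and S100a9, which also occur in other myeloid cells and injured epithelium, were at 1.55, 1.02 and 1.44 FPKM at 26 min and 6.09, 5.08 and 3.26 FPKM at 28 min and at 2.12, 1.48 and 4.30 FPKM at 26 min and 7.42, 5.21 and 5.89 FPKM at 28 min. They rose by 1.29 and 1.05, and were DEGs in 3 and 2 of the 6 fits without 1 kidney (adjusted p up to 0.0848 without replicate 1 at 28 min and 0.152 without replicate 2 at 26 min). Cxcr2 rose by 0.40, and Ly6g, the marker on which neutrophils are sorted, was at 0.28, 0.27 and 0.28 FPKM at 26 min and 0.06, 0.07 and 0.07 FPKM at 28 min, lower in every 28 min kidney (adjusted p = 0.154). The sums of 15 macrophage and monocyte markers were 89.4 to 116 and 95.2 to 106 FPKM, and 0 of them passed, with 2 at an unadjusted p under 0.05. Of 11 T and NK cell markers 1 fell, beside 8.52% of all tested genes, and none of 6 B cell markers passed. Among 10 red cell and platelet markers, the 2 that fell were Slc4a1 and Itga2b. The red cell sum reached 976 FPKM in replicate 3 at 28 min against 358 to 516 FPKM at 26 min. Markers of fat, adrenal and muscle summed to at most 1.61 FPKM, with Adipoq, Cyp11b1 and Myh4 at 0, and Star rose by 0.19. The part of these cells in the results was not tested.

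Replication genes and mitosis genes had medians of opposite sign. Of 45 replication genes, 6 rose and 0 fell, with a median of 0.29, and of 37 genes of mitosis, 4 fell and 0 rose, with a median of -0.55. Of all tested genes, 10.8% rose and 8.52% fell. Pold4, a subunit of polymerase delta, was at 57.3, 38.5 and 55.0 FPKM at 26 min and 86.7, 81.7 and 81.6 FPKM at 28 min, and Orc6, of the origin recognition complex, was at 8.41, 9.20 and 9.19 FPKM at 26 min and 13.6, 15.4 and 16.0 FPKM at 28 min. Their fold changes were 0.73 (adjusted p = 0.0451) and 0.66 (adjusted p = 0.0066), without overlap. Ccnb2, a cyclin of the entry into mitosis, was at 5.81, 13.1 and 5.06 FPKM at 26 min and 1.81, 1.36 and 2.21 FPKM at 28 min, with replicate 2 at 26 min far above the rest. Ube2c, which marks cyclins for destruction, and Kif20a, a kinesin of cell division, fell by 1.18 and 1.07, and Ccnb2 by 1.54. Without that 1 kidney none of the 37 mitosis genes passed, Ccnb2 having an adjusted p of 0.077. The 6 replication genes that rose were 1 without replicate 3 at 28 min, 3 with a pseudocount of 0.1 FPKM and with no quantile normalization, 1 after rescaling to a constant sum, and 18 in a fit of the 26 and 28 min kidneys alone. Of 13 genes of D cyclins and their partners, 4 rose and 1 fell, with a median of 0.27, and 2 rose without replicate 1 at 26 min and 0 fell without replicate 2 at 26 min, replicate 1 at 28 min or replicate 3 at 28 min. Cdk4 was at 90.7, 84.3 and 85.5 FPKM at 26 min and 116, 120.4 and 123 FPKM at 28 min, a rise of 0.48. Cdk6 rose by 0.78, and Lig1, DNA ligase, did not pass at 0.29.

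Clock genes and growth factors were read last. Of 18 circadian clock genes, 5 fell and 0 rose, with a median of -0.06 and 0 DEGs, beside 8.52% of all tested genes that fell. The 5 were 1 without replicate 2 at 26 min and 2 without replicate 1 at 26 min, replicate 1 at 28 min or replicate 3 at 28 min. Ciart and Hlf had fold changes of -0.65 and -0.55. Of 32 growth factors and receptors, 3 fell and 2 rose, beside 8.52% and 10.8% of all tested genes. Egf was the 1 DEG, the median was 0.11, and without replicate 2 at 26 min 1 of the list fell. The 2 that rose were 1 in each of the fits without 1 kidney but that without replicate 3 at 26 min, where they were 3, and they were 1 with the replicate block and 4 without the 16 min kidneys.

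Mean levels of the lists in each kidney show where the step stood among all ischemia times. The brush border list was between 4.97 and 5.20 on the log2 scale at 26 min, between 4.15 and 4.32 at 28 min and between 5.33 and 5.41 in sham. The injury list was between 4.54 and 5.05 at 26 min and between 5.65 and 5.71 at 28 min, against 2.78 to 3.40 in sham. On the same scale the brush border levels at 26 min all lay below the lowest in sham, and the injury levels at 26 min all lay above the highest. For both lists replicate 3 was the 26 min kidney nearest to the 28 min kidneys.

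**Figure D4:**
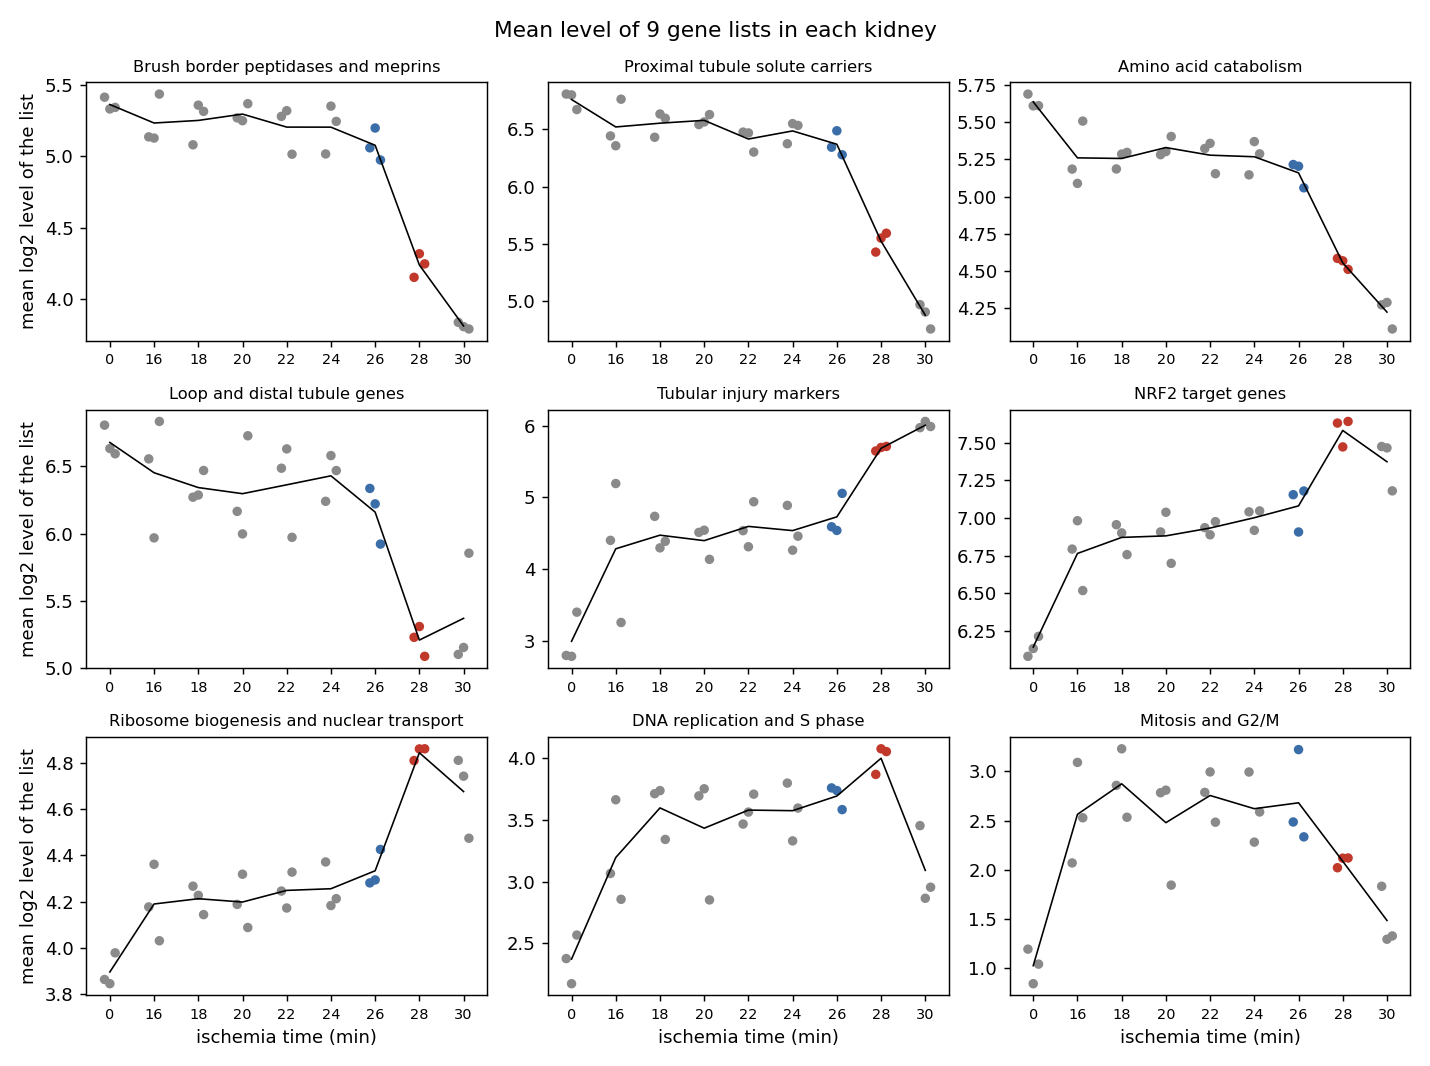
Mean log2 level of the genes of 9 lists in each of the 27 kidneys (1 point per kidney, replicates side by side; 26 min in blue, 28 min in red, line through the group means) over ischemia time in min, the times drawn evenly spaced. The brush border, carrier and catabolism lists drop between 26 and 28 min and are lower again at 30 min, the NRF2, ribosome biogenesis and replication lists peak at 28 min, and the mitosis list falls after 26 min.

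The step was then set against the earlier step of the same length, from 22 to 24 min, which shares no kidney with it. The difference between the steps passed for 226 genes (1.24% of those tested), 46 with a more positive and 180 with a more negative change from 26 to 28 min. Among the largest were Mep1b, whose change differed by -3.29 (adjusted p = 0.00444), Egf by -3.13 (0.0359), Slc7a13 by -2.92 (0.0046), Ceacam2 by -2.67 (0.00187) and Mettl7a2 by -2.63 (0.00462). In the other direction were Fosl1 by 2.47 (0.00972), Crct1 by 2.39 (0.00192), Vgf by 2.35 (0.0208) and Grp by 2.35 (0.0338), all as adjusted p-values in limma. The count was 129 without replicate 3 at 22 min, 140 without replicate 2 at 24 min and 147 without replicate 2 at 26 min.

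Against the next step, from 28 to 30 min, 16 genes (0.088%) differed, 9 with a more positive and 7 with a more negative change at the earlier step. Both steps share the 28 min kidneys, which the test allows for. Ugt3a1, Cyp2e1, Selenbp2, Dio1 and Tmem117 had the most negative differences. Dio1, the deiodinase that activates thyroid hormone, was at 13.9, 17.6 and 11.5 FPKM at 26 min and 5.60, 5.62 and 4.30 FPKM at 28 min, and its mean was 4.97 FPKM at 30 min. Cyp2e1 had a mean of 87.5 FPKM at 28 min and 85.3 FPKM at 30 min. Crct1, Cldn14, Il24, Trib3 and Pole2 had the most positive differences. Pole2, a subunit of polymerase epsilon, was at 5.19, 5.40 and 5.58 FPKM at 26 min and 8.02, 8.99 and 8.58 FPKM at 28 min, with a mean of 3.15 FPKM at 30 min, a fall of 1.22 on the log2 scale from 28 min (adjusted p = 0.00059). This count hung on single kidneys: it was 0 in limma without replicate 2 or 3 at 28 min (2475 and 1979 genes at an unadjusted p under 0.05), 2, 3 and 4 without replicate 2 at 26 min, replicate 3 at 30 min and replicate 1 at 26 min, 10 without replicate 1 at 28 min, 47 without replicate 3 at 26 min and 196 without replicate 1 at 30 min. After rescaling to a constant sum, 8 of 21 such genes had the more positive change.

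**Figure D5:**
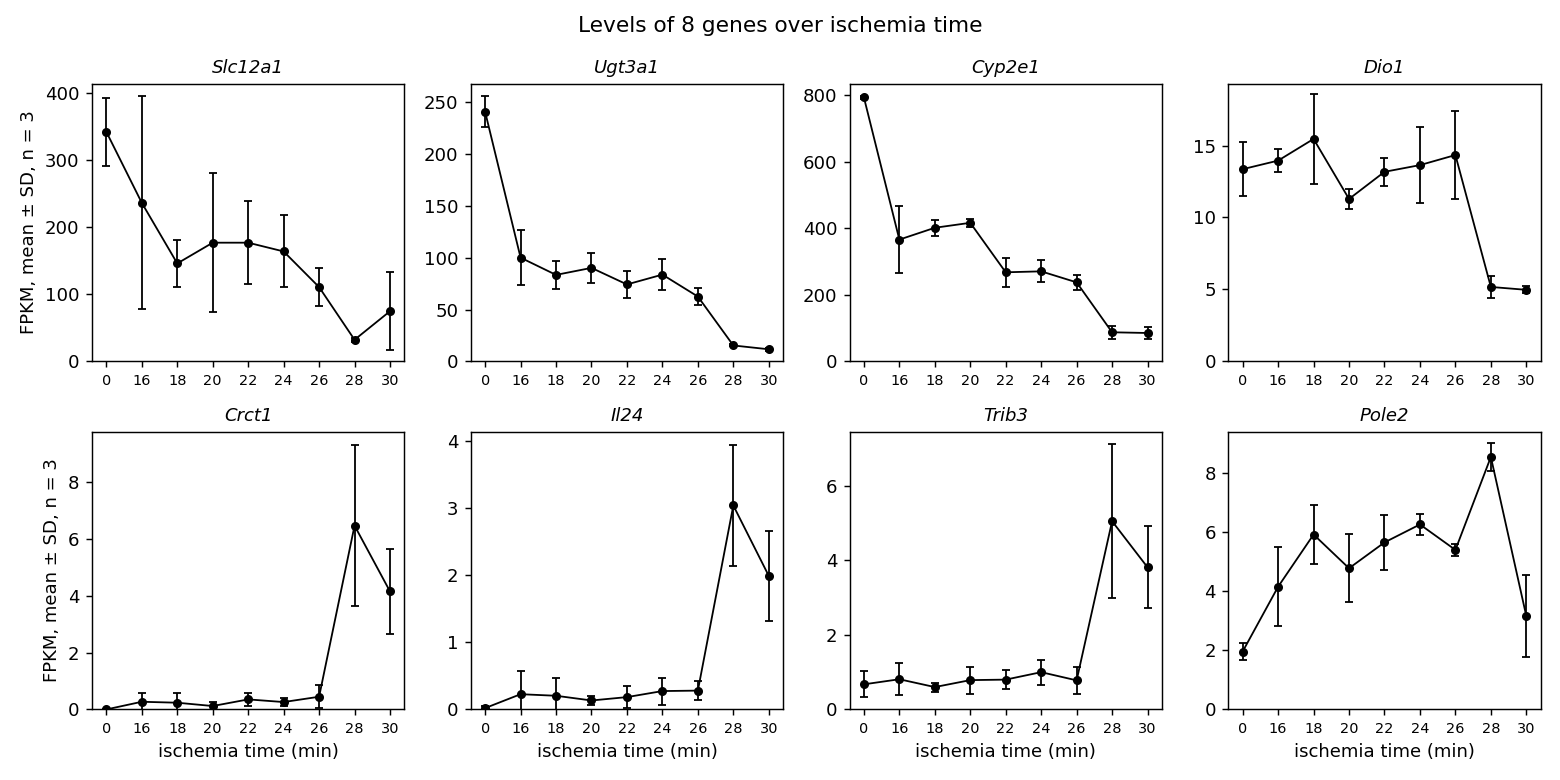
FPKM (mean ± SD, 3 kidneys) over the 9 ischemia times in min for 8 genes; the times are drawn evenly spaced, and bars that would pass below 0 end there. Ugt3a1, Cyp2e1 and Dio1 are far lower at 28 than at 26 min and lie close to their 28 min means at 30 min, while Crct1, Il24, Trib3 and Pole2 have their highest mean at 28 min.

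The medians of the lists for both steps, which share the 28 min kidneys, are given side by side. Over the brush border list the median was -0.79 from 26 to 28 min and -0.42 from 28 to 30 min. Over the loop and distal list it was -0.74 and then 0.15, with mean levels of 5.10, 5.15 and 5.85 in the 3 kidneys at 30 min, of which replicate 3 stood apart. Slc12a1 had means of 32.3 FPKM at 28 min and 74.9 FPKM at 30 min, the latter with an SD of 58.3 FPKM. Over the replication list it was 0.29 and then -0.98, and over the NRF2 list 0.47 and then -0.19.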

How the data were processed

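Gene values in FPKM for 27 left kidneys, 3 at each of 9 ischemia times, were deposited by the authors in 1 table of 19392 genes, sequenced on a DNBSEQ platform. The submitters' processing notes name Bowtie2, RSEM, DESeq2 and the genome build GRCm38.p6, without versions. The annotation and the strand setting are not given in the sources used here. The study's methods call the unit RPKM and describe quantile normalization of log2 values, which is not in the deposited FPKM. No counts were used, so depth is known only relative to the other kidneys and intervals for counting error are not given. The table held 0 columns of other samples and 225 genes at 0 in every kidney.

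Genes above 0 FPKM in at least 3 kidneys (18188) were analysed as log2(FPKM + 1), quantile normalized, in limma 3.58.1 (R 4.3.3) with all 9 groups in 1 fit, so the spread is shared among groups. The scale understates changes of low genes. P-values were adjusted by Benjamini-Hochberg over all genes, and a DEG differed by more than 1 on the log2 scale with an adjusted p below 0.05. Differences between steps were contrasts in the same fit. Tables and plots were made in Python 3.11.15 with pandas 2.3.3 and matplotlib 3.10.9. The scripts were checked on simulated data.

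The comparison, the genes and the 41 lists (1083 tested genes), with the marker lists, were chosen with earlier results of these data known. Genes named in the text were the 15 largest increases and decreases among DEGs whose groups did not overlap, up to 4 DEGs per list and direction, marker genes, genes the study's text names, the 5 largest step differences in each direction, and up to 3 genes of lists without a DEG. Bcat1, Slc7a5 and Slc7a11 were named after their values were seen. A few genes that met the rule are not reported here. Alternatives were another pseudocount, scaling, filter or trend, a replicate block, a fit of 2 groups, and leaving out each kidney. One alternative, leaving out the 16 min kidneys, was chosen after seeing the data. Replicates are different mice. Serum creatinine, histology and qPCR were not analysed here.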

Additional observations from a re-analysis of the deposited data

Results flagged for a closer look

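2 steps of equal length that share no kidney differed for 226 genes, by a test of the difference between the changes from 26 to 28 min and from 22 to 24 min in limma. The differences on the log2 scale were -3.29 for Mep1b, -3.13 for Egf, -2.92 for Slc7a13, -2.67 for Ceacam2 and -2.63 for Mettl7a2. Those of the other sign were 2.47 for Fosl1, 2.39 for Crct1, 2.35 for Vgf and 2.35 for Grp. Without replicate 3 at 22 min, replicate 2 at 24 min or replicate 2 at 26 min the count was 129, 140 or 147.

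The same test against the step from 28 to 30 min passed for 16 genes. The differences were -1.67 for Ugt3a1, -1.52 for Cyp2e1, -1.43 for Selenbp2, -1.25 for Dio1 and -1.21 for Tmem117. They were 2.77 for Crct1, 2.58 for Cldn14, 2.05 for Il24, 2.02 for Trib3 and 1.80 for Pole2. These 2 steps share the 28 min kidneys, so a high or low value there moves both changes in opposite ways. The count ranged from 0, without replicate 2 or 3 at 28 min, to 196, without replicate 1 at 30 min.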

How the results depend on the processing

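The count of 272 DEGs was 515 with a pseudocount of 0.1 FPKM and between 243 and 342 under the other settings, and it ranged from 198 to 365 with 1 kidney left out. The 226 genes of the difference from the step of 22 to 24 min were 209 to 308 under the other settings and 129 to 292 with 1 kidney left out. The 16 genes of the difference from the step of 28 to 30 min were 3 with a pseudocount of 0.1 FPKM, 28 without quantile normalization, 29 with at least 1 FPKM in at least 3 kidneys, 66 without the 16 min kidneys (chosen after seeing the data) and 0 to 196 with 1 kidney left out. The share with the more positive change was 56.2%, and 38.1% after rescaling to a constant sum. The cause of these shifts was not tested, except that a smaller pseudocount widens the changes of low genes by construction.

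With the replicate block the counts were 271, 214 and 9, but the numbers only name the kidneys: deviations from the group means of same-numbered kidneys correlated at -0.041, 0.016 and 0.104, and replicate 3 alone correlated best with its own number. Of the 88 DEGs among the 162 genes followed in the text, 58 were DEGs in each of the 6 fits without 1 kidney and 30 were not in at least 1. In the fit of the 26 and 28 min kidneys alone 19 of the 88 were not DEGs, and only Havcr1 became one. The 19 included Pvalb, Calb1, Pgam2, Serpina1a, Cldn14 and Kap. Values that changed sign belonged to genes that passed no test. With 1 kidney left out they ranged from -0.12 to 0.21 for Jun, from -0.026 to 0.90 for Cxcl1 and from -0.047 to 0.16 for Il6, each lowest without replicate 1 at 26 min, and from -0.26 to 0.10 for Cxcl5, highest without replicate 3 at 26 min. Il6 was also below 0 without replicate 2 at 26 min (-0.01) and without replicate 3 at 28 min (-0.0026). The median over all genes moved by less than 0.03 under every setting. Depth is unknown beyond the ratios between kidneys, and changes of genes near 0 FPKM may not have been detectable.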
